A study of Homo sapiens with 17 samples.

Results

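The colony-stimulating factor genes CSF1, CSF2 and CSF3 were followed in MDA-MB-231 cells treated with TRAIL. They were taken by symbol from the table of gene counts, which gave 3 genes of 58870 entries, and each symbol matched 1 entry. MDA-MB-231 cells are an established human breast cancer line, classed as without oestrogen, progesterone or HER2 receptors (triple negative) and labelled as mesenchymal basal B. TRAIL, a member of the TNF family, binds death receptors and can trigger apoptosis. The cells were cultured in RPMI with serum and received 45 nM TRAIL, a dose the submitters call suboptimal, used so that living rather than dying cells were sampled. RNA was taken at 0, 1, 3, 6, 12 and 24 h, with 3 libraries at each time except 1 h, which had 2. All 17 libraries carry the same treatment label, those at 0 h included, and 0 libraries were kept without TRAIL to a later time. Time with TRAIL and time in culture therefore cannot be told apart. The labels do not say whether replicates came from separate cultures, so p-values measure only the spread between these samples, which may be technical.

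Colony-stimulating factors are secreted proteins named for the blood cell colonies they support. CSF1 (M-CSF) acts on the receptor CSF1R and maintains monocytes and macrophages. CSF2 (GM-CSF) acts on a receptor made of CSF2RA and the shared beta chain CSF2RB, and supports granulocytes, macrophages and dendritic cells. CSF3 (G-CSF) acts on CSF3R and drives the formation and release of neutrophils. Tumour cells can release all of them, and CSF2 and CSF3 are known as genes that NF-κB and AP-1 can induce and whose mRNAs are short-lived.

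CSF1 lies on chromosome 1 from 109910242 to 109930992, CSF2 on chromosome 5 from 132073790 to 132076170 and CSF3 on chromosome 17 from 40015361 to 40017813. All lie on the plus strand and are protein-coding genes of GENCODE 29 on GRCh38, matched by Ensembl identifier without its version (ENSG00000184371, ENSG00000164400 and ENSG00000108342). The annotation places 0 other genes over any of them. Their counts were whole in all 17 libraries. The annotation gives 1 transcript for CSF2 and 9 each for CSF1 and CSF3, which the gene counts do not separate.

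The region before the start of CSF2 is shown, because the promoter reference used held no sequence for CSF1 or CSF3. It holds the 250 bases before the RefSeq start, chr5:132073539-132073788 of GRCh38.p14, on the plus strand and 5′ to 3′. Capitals mark matches to the motifs searched.
CSF2: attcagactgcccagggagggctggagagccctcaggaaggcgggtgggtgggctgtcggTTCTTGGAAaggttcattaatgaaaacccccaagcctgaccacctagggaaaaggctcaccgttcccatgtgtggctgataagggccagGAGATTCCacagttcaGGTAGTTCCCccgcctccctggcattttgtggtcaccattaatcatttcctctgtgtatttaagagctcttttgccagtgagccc

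The motifs were searched on both strands from 250 bases before to 50 bases after each RefSeq start in that reference. CSF1 and CSF3 had no window there and were not searched. The NF-κB-like motif of GGG, any 5 bases and CC matched the CSF2 window on the strand opposite to the gene, at -85 to -76. Of the 35116 windows in the reference, 58.7% held it. On the gene strand alone the CSF2 window had 0 matches to it. GAGATTCC, the core of the element called CK-1 in cytokine genes, matched the gene strand at -101 to -94 and was held by 0.869% of windows. TTCCNNGAA, a STAT-like motif, matched the opposite strand at -190 to -182 and was held by 4.45% of windows. The AP-1-like motif TGANTCA (held by 7.71% of windows) and TATAAA (held by 11.5%) had 0 matches in the CSF2 window. The 3 matches did not overlap. A match describes these letters only, and binding was not tested.

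The AUUUA pentamer, written ATTTA in DNA letters, is the core of the AU-rich elements that recruit decay factors to cytokine mRNAs. It was counted in the longest annotated 3′ UTR of each gene. There were 8 matches in 318 bases for CSF2, 7 in 854 bases for CSF3 and 4 in 2154 bases for CSF1. The longer motif TTATTTATT matched CSF2 3 times and the other two genes 0 times. At least 3 such matches were found in 0.702% of the 18798 genes with an annotated 3′ UTR of at least 50 bases, and at least 8 ATTTA matches in 17.4%, without regard to UTR length. The 30 bases of each UTR with the most ATTTA are shown 5′ to 3′, with the pentamers in capitals, because this feature differs between the 3 genes.
CSF1: tttatataaagtcATTTAaatatctATTTA
CSF2: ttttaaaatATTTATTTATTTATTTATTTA
CSF3: tcccatgtATTTAtctctATTTAatATTTA

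Total counts per library ran from 13731497 to 19234939, and 15365 genes were tested. Mitochondrial genes took 3.66% to 9.71% of the counts, and this share moved with time: it was 5.53% to 8.37% at 0 h, 7.99% to 8.97% at 3 h, where CSF2 was highest, and 3.66% to 4.14% at 24 h, where CSF1 was highest. Its part in the results was not tested. VIM, CD44, KRT8 and KRT18 were abundant in every library, and the oestrogen and progesterone receptor genes ESR1 and PGR had at most 2 and 1 counts. ERBB2, the HER2 gene, was present at 56.4 to 70.9 CPM. Of 9 myeloid markers, 2 passed the filter on low counts (CD14 and CSF1R), the summed level of the list ran from 4.10 to 8.26 CPM, and the defining markers TYROBP and MPO were at 0 in all libraries. Of 4 lymphocyte markers 0 passed and CD3E was at 0. Of 4 fibroblast markers COL1A1 and LUM passed (list sum 6.34 to 18.1 CPM), and of 3 endothelial markers PECAM1 passed (0.789 to 4.10 CPM).

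The 3 genes followed different courses. CSF2 rose early and briefly, to a fitted level 5.08 times that at 0 h by 3 h. CSF1, already abundant, rose slowly and reached 1.96 times its 0 h level at 24 h. CSF3 was near the limit of detection at 0 and 1 h and had a fitted level 2.58 to 3.02 times that at 0 h from 3 h on. Levels are given as CPM, the count scaled to a common library total with TMM factors, and a gene is called when its Benjamini-Hochberg adjusted p from the edgeR quasi-likelihood test of all 15365 genes is below 0.05. In the test of any difference among the 6 times, CSF2 (adjusted p 9.0e-11), CSF1 (1.2e-10) and CSF3 (0.00154) were called by edgeR, beside 64.2% of all genes tested. The CSF3 call is not independent support, since CSF3 passed the filter on low counts only through its later times. In bulk RNA, a change in the number of cells that express a gene and a change in the RNA per cell cannot be told apart.

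**Figure D1:**
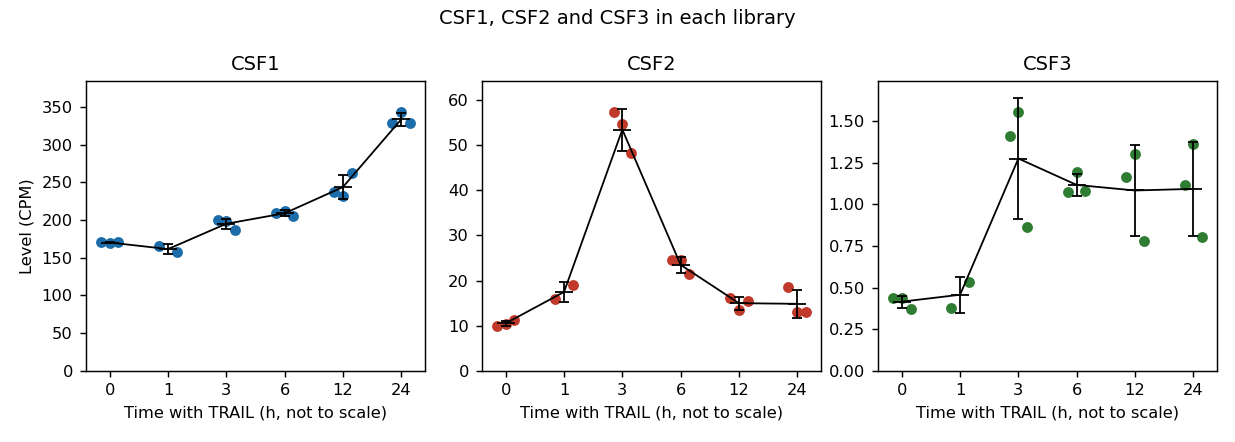
Level of CSF1, CSF2 and CSF3 in CPM (vertical axes from 0, a scale for each gene) against time with TRAIL in h (not to scale). Points are libraries, and the black line and bars are the mean ± SD (n = 3, and n = 2 at 1 h). CSF1 climbs to 333.6 CPM at 24 h, CSF2 peaks at 53.4 CPM at 3 h, and CSF3 stays under 1.56 CPM in every library.

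CSF2 stood at 10.0, 10.3 and 11.2 CPM in the 3 libraries at 0 h, from 161 to 180 counts. At 1 h its libraries had 15.95 and 18.998 CPM, and at 3 h they had 57.3, 54.7 and 48.3 CPM, from 673 to 773 counts. Every 1 h library thus lay above every 0 h library, and every 3 h library above every library of any other time. At 6 h CSF2 had 24.5, 24.5 and 21.4 CPM. At 12 h it had 16.1, 13.4 and 15.4 CPM, and at 24 h 18.5, 13.1 and 12.9 CPM. All libraries from 6 h on remained above the highest 0 h library, and those at 12 and 24 h overlapped each other and the 1 h libraries. The share of all genes whose libraries separate between times in this way was not counted. Replicate 1 was the highest of the 24 h group and the other two lay close together.

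The log2 fold change of CSF2 against 0 h was 2.34 at 3 h (SE 0.122, adjusted p 9.7e-11 in edgeR), which was the 25th highest of the 15365 genes tested. This contrast called 17.7% of all genes and the contrast at 6 h called 30.1%. At 6 h the log2 fold change of CSF2 was 1.15 (SE 0.127, adjusted p 3.7e-06). At 12 h CSF2 was higher by 0.50 (SE 0.132, adjusted p 0.0169), beside 12.4% of genes called, and at 24 h by 0.50 (SE 0.133, adjusted p 0.0069), beside 35.1%. At 1 h CSF2 was higher by 0.73 (SE 0.145, adjusted p 0.0271), 1 of 48 genes called at that time (0.312% of those tested).

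With 1 library left out, the calls of CSF2 at 3 and 6 h were kept and those at 1, 12 and 24 h could be lost. The call at 1 h was lost on leaving out any 1 of the 5 libraries compared, while the log2 fold change stayed between 0.59 and 0.86. These were 0 h replicate 1 (0.70, adjusted p 0.110), 0 h replicate 2 (0.72, 0.156), 0 h replicate 3 (0.78, 0.0574), 1 h replicate 1 (0.86, 0.0511) and 1 h replicate 2 (0.59, 0.708). Leaving out a 1 h library leaves 1 sample at that time, which is then assumed to vary like the other groups. Limma-voom gave 0.72 there with an adjusted p of 0.0518. The call at 12 h was lost without 0 h replicate 1 (0.46, adjusted p 0.0744), 0 h replicate 2 (0.49, 0.0611), 12 h replicate 1 (0.45, 0.0592) or 12 h replicate 3 (0.48, 0.0532), with folds close to the 0.50 from all libraries. At 24 h it was lost without replicate 1, where the log2 fold change was 0.31 (adjusted p 0.0516).

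Between consecutive times, CSF2 rose by 1.61 on the log2 scale from 1 to 3 h (SE 0.133, adjusted p 2.8e-07), where 5.73% of genes were called. It fell by 1.19 from 3 to 6 h (SE 0.112, adjusted p 7.4e-07, 43.2% called) and fell by 0.65 from 6 to 12 h (SE 0.120, adjusted p 8.6e-04, 20.6% called). From 12 to 24 h the difference was -0.0031 (SE 0.126, adjusted p 0.991, 12% of genes called). CSF2 has a short mRNA, of 787 exonic bases. With each library's trend in gene length and GC content removed, an alternative chosen after the data were seen, CSF2 stood 2.15 above its 0 h level on the log2 scale by 3 h (adjusted p 1.7e-13) and 0.80 above it by 24 h (4.2e-06), and from 3 to 6 h it fell by 0.75 (6.9e-07).

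In order of level, CSF2 ran from 0 h through 24 h, 12 h, 1 h and 6 h to 3 h. The neighbours 24 h and 12 h, and 12 h and 1 h (log2 difference -0.23 at 12 h against 1 h, SE 0.139, adjusted p 0.277, 15.9% of genes called), did not differ beyond their spread. The step from 1 h to 6 h was called (0.42, SE 0.135, adjusted p 0.0213, 33.8% of genes called). This pair, and that of 12 h and 1 h, were picked from the order of the means and were not run under the alternatives.

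CSF1 had 170.4, 169.6 and 170.6 CPM at 0 h, from 2723 to 2741 counts, and its 0 h libraries were the closest of any time. It had 165.8 and 157.2 CPM at 1 h. The 3 h libraries had 200.01, 198.2 and 187.1 CPM and the 6 h libraries 209.4, 212.5 and 205.1 CPM. At 12 h CSF1 reached 236.6, 232.3 and 262.4 CPM, and at 24 h 329.2, 343.3 and 328.2 CPM, from 4919 to 5622 counts. From 1 h on, the libraries of each time lay above all those of every earlier time from 1 h, with 0 overlaps, and both 1 h libraries lay below every 0 h library. How many of all genes separate in this way was not counted.

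At 1 h CSF1 had a log2 difference of -0.076 from 0 h (SE 0.0604, adjusted p 0.987). CSF1 was called higher against 0 h in edgeR at 3 h (log2 fold change 0.20, SE 0.0539, adjusted p 0.0164), 6 h (0.30, SE 0.0537, adjusted p 5.5e-04), 12 h (0.52, SE 0.0536, adjusted p 4.8e-06) and 24 h (0.97, SE 0.0537, adjusted p 2.2e-10). At 24 h it ranked 172nd from the highest of 15365 genes and at 3 h 3568th. The median absolute log2 fold change over all genes was 0.18 at 3 h, close to that of CSF1, and 0.24 at 24 h. These contrasts called 17.7% (3 h), 30.1% (6 h), 12.4% (12 h) and 35.1% (24 h) of all genes. The call at 3 h was lost without 0 h replicate 2 (adjusted p 0.0507), 0 h replicate 3 (0.0525), 3 h replicate 1 (0.0690) or 3 h replicate 2 (0.0567). It was also lost with library size as the only scaling (0.13, adjusted p 0.112) and without a filter on low counts (0.18, adjusted p 0.0920).

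Between consecutive times, CSF1 rose by 0.27 on the log2 scale from 1 to 3 h (SE 0.0607, adjusted p 0.0105), by 0.22 from 6 to 12 h (SE 0.0532, adjusted p 0.00620) and by 0.45 from 12 to 24 h (SE 0.0530, adjusted p 5.7e-05). From 3 to 6 h the difference was 0.10 (SE 0.0537, adjusted p 0.143), where 43.2% of all genes were called and 80.9% had a larger absolute change. The libraries of these times did not overlap, and the share of all genes that separate likewise was not counted. The call from 1 to 3 h was lost without 1 h replicate 1 (0.31, adjusted p 0.0573) or replicate 2 (0.24, 0.106), where the lone 1 h library is assumed to vary like the other times, and when only the libraries of those times were fitted (0.0826). In order of level, CSF1 ran from 1 h through 0 h, 3 h, 6 h and 12 h to 24 h, and the pairs 1 h and 0 h, and 3 h and 6 h, were not called.

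CSF3 had 7, 7 and 6 counts in the libraries at 0 h, that is 0.436, 0.436 and 0.373 CPM. It had 6 and 8 counts at 1 h (0.380 and 0.533 CPM). At 3 h it had 19, 20 and 12 counts (1.41, 1.55 and 0.860 CPM), and at 6 h 17, 18 and 20 (1.07, 1.19 and 1.08 CPM). The counts were 17, 26 and 14 at 12 h (1.17, 1.30 and 0.777 CPM) and 19, 22 and 12 at 24 h (1.11, 1.36 and 0.801 CPM). All 12 libraries from 3 h on lay above all 5 libraries at 0 and 1 h, and the 4 later times overlapped one another. The share of all genes that separate likewise was not counted.

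CSF3 passed the filter on low counts only through its later times, since 0 of 5 libraries at 0 and 1 h and 12 of 12 at later times reached the filter's level of 0.629 CPM. A gene kept in this way had to differ between times, and its calls are given with that limit. The log2 fold change of CSF3 against 0 h was 1.59 at 3 h (SE 0.348, adjusted p 0.00359), 1.41 at 6 h (SE 0.346, adjusted p 0.00490), 1.37 at 12 h (SE 0.345, adjusted p 0.0130) and 1.38 at 24 h (SE 0.348, adjusted p 0.00452) in edgeR. Without the filter the adjusted p-values were 0.00275, 0.00592, 0.0150 and 0.00626. At 1 h the value was 0.13 (SE 0.456, adjusted p 0.991), from counts too low to show a small change. The call at 12 h was lost without 12 h replicate 2 (1.19, adjusted p 0.0808).

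From 1 to 3 h CSF3 rose by 1.46 on the log2 scale (SE 0.393, adjusted p 0.0288). This call was lost in DESeq2 (1.49, adjusted p 0.0844), when only those times were fitted (1.46, 0.112), and without either 1 h library (a lone library assumed to vary like the other times) or without 3 h replicate 1 or 2 (adjusted p 0.0843 to 0.308). Later steps were -0.19 from 3 to 6 h (SE 0.295, adjusted p 0.634), -0.040 from 6 to 12 h (SE 0.291, adjusted p 0.942) and 0.017 from 12 to 24 h (SE 0.292, adjusted p 0.978), and with upper-quartile scaling the last pair changed sign. In order of level the times ran 0, 1, 12, 24, 6 and 3 h, and the one called step between neighbours was from 1 h to 12 h (1.24, SE 0.391, adjusted p 0.0351). That pair was picked from the order of the means and was not run under the alternatives. It also spans the times below and above the filter's level, so its call is no independent support. No fall of CSF3 after 3 h was detectable at this depth.

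**Figure D2:**
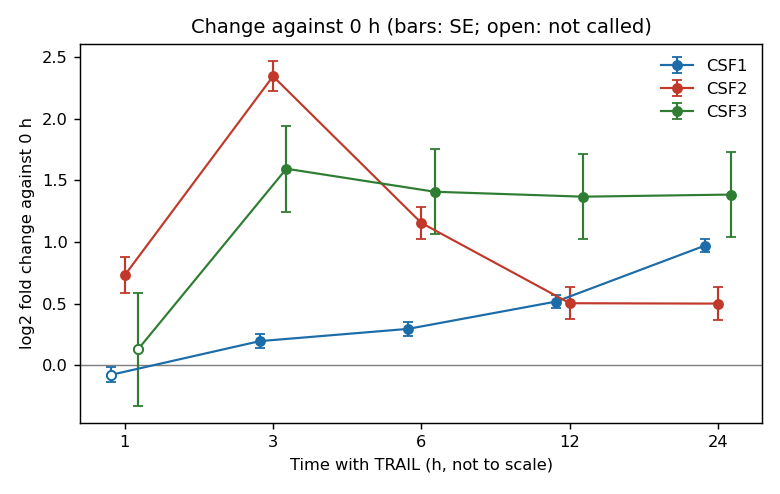
Log2 fold change of CSF1, CSF2 and CSF3 against 0 h (vertical axis) at each later time in h (not to scale), with SE as bars. Filled points have an adjusted p below 0.05 in edgeR and open points do not. CSF2 peaks at 2.34 at 3 h, CSF3 lies between 1.37 and 1.59 from 3 h on, and CSF1 climbs to 0.97 at 24 h.

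The 3 genes were also set against each other within each library, and these ratios were again compared with the same 0 h libraries. The CPM ratio of CSF2 to CSF1 had a geometric mean of 0.0617 (0 h), 0.108 (1 h), 0.273 (3 h), 0.112 (6 h), 0.0614 (12 h) and 0.0439 (24 h), over 3 libraries each and 2 at 1 h. On the log2 scale this ratio differed from 0 h by 2.15 at 3 h and by -0.49 at 24 h, with libraries that did not overlap between the times, and by -0.0088 at 12 h. The ratio of CSF3 to CSF1 was higher than at 0 h by 1.38 on the log2 scale at 3 h and by 0.40 at 24 h, where the libraries overlapped. The ratio of CSF2 to CSF3 was higher by 0.77 at 3 h and lower at 24 h (-0.89). The exact two-sided permutation test of a ratio gave p = 0.1 at 3 h for all 3 ratios, at 24 h for CSF2 to CSF1 and for CSF2 to CSF3, and 0.3 at 24 h for CSF3 to CSF1. Over the 15 exact tests of ratios, the adjusted value of p = 0.1 was 0.125. This p of 0.1 is the smallest that 3 libraries against 3, or 2 against 3, can give, so these differences cannot pass 0.05 in this test. The same exact test of each gene alone, on log2(CPM + 0.5), gave 0.1 in 14 of 15 comparisons with 0 h and 0.6 for CSF3 at 1 h.

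**Figure D3:**
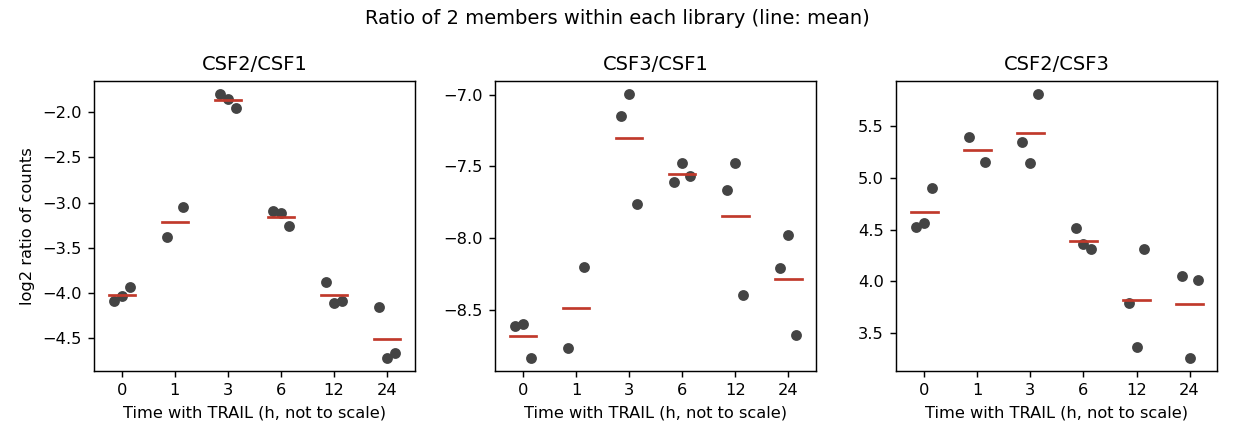
Log2 ratio of CPM of CSF2 to CSF1, CSF3 to CSF1 and CSF2 to CSF3 within each library (vertical axes) against time with TRAIL in h (not to scale). Points are libraries and lines are means. The CSF2 to CSF1 ratio is highest in the 3 h libraries, with a mean of -1.87, and lowest at 24 h, with a mean of -4.51.

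Levels of different genes can be compared only per length. In TPM, the count divided by exonic length and scaled to a common total, CSF1 stood at 94.5 ± 5.38 (SD, n = 3) and CSF2 at 40.3 ± 4.09 at 0 h, and CSF3 at 0.562 ± 0.0510. At 3 h the TPM values were 96.8 ± 2.49 for CSF1, 182 ± 12.9 for CSF2 and 1.53 ± 0.395 for CSF3 (SD, n = 3). At 24 h they were 222.8 ± 14.3, 67.8 ± 11.2 and 1.78 ± 0.489. CSF2 was thus the highest of the 3 per length at 3 h and CSF1 at the other two of these times. The order at 3 h depends on the CSF1 transcript: with the longest coding transcript (4210 bases) the CSF1 level was 125 TPM, and with the shortest (1083 bases) it was 484 TPM. CSF3 was the lowest with any of these lengths.

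By position, IL3, the neighbour of CSF2 in the cytokine cluster of chromosome 5, had 0 counts in all libraries, and 0 genes within 100 kb of CSF2 passed the filter. Within 100 kb of CSF1, AHCYL1 was the 1 gene tested, at 0.50 at 24 h (log2 fold change, adjusted p 2.7e-05) and -0.11 at 3 h (adjusted p 0.293). Within 100 kb of CSF3, 6 genes were tested. At 3 h 2 of them were lower, THRA (-0.73, adjusted p 7.6e-04) and NR1D1 (-1.13, adjusted p 8.8e-06), beside 8.71% of all genes, and at 6 h 3 were lower, beside 13.2%. At 12 h 2 were higher, NR1D1 (0.53, adjusted p 0.00549) and ORMDL3 (0.23, adjusted p 0.0232), beside 5.96%, and at 24 h 1 was lower, NR1D1 (-0.68, adjusted p 5.3e-04), beside 17.1%. The nearest, MED24, had -0.053 (adjusted p 0.611) at 3 h. CSF3 was above its 0 h level at all these times.

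The genes with the most similar profile over the 17 libraries were named by Pearson r of log2 CPM, as a description without a test. The libraries share their times and depth, and 12483 or 12484 genes were compared. For CSF2 these were JUNB (r = 0.965), an AP-1 subunit, IFNGR2 (0.963), a chain of the interferon-gamma receptor, MIDN (0.950), TNFAIP3 (0.923), the NF-κB inhibitor A20, and KDM6B (0.920), a histone demethylase. For CSF1 they were RFX5 (0.955), a regulator of MHC class II genes, LRIG1 (0.936), DDX58 (0.930), the RNA sensor RIG-I, CDK15 (0.922) and PARP14 (0.920). For CSF3 they were AC012313.1 (0.884), PML (0.872), ZNF778 (0.872), USF1 (0.866) and IL11 (0.863), from counts of 6 to 26 a library.

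NFKB2, the NF-κB subunit gene named in the study's title, had r = 0.80 with CSF2, 0.79 with CSF3 and 0.29 with CSF1. CXCL8, a neutrophil chemokine gene, had 0.90 with CSF2 and -0.0067 with CSF1, and IL6 had 0.87 with CSF2 and 0.085 with CSF1. RELB, whose product pairs with that of NFKB2, had 0.73 with CSF2, 0.76 with CSF3 and 0.33 with CSF1. Among the 3 genes themselves, r was -0.13 for CSF1 and CSF2, 0.56 for CSF1 and CSF3, and 0.56 for CSF2 and CSF3. The named genes depended on the measure: by Spearman rho 2 of 5 were named again for CSF2, 1 of 5 for CSF1 and 0 of 5 for CSF3.

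**Figure D4:**
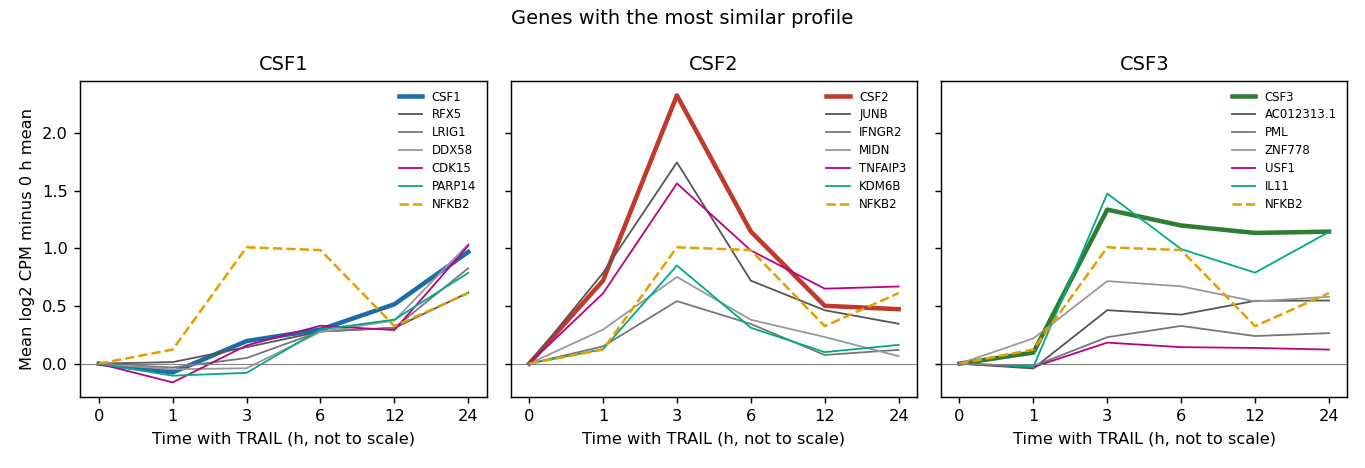
Mean log2 CPM at each time minus that at 0 h (vertical axis) for CSF1, CSF2 and CSF3 (thick lines), the 5 genes with the highest r to each (thin lines) and NFKB2 (dashed), against time with TRAIL in h (not to scale). CSF2 and its 5 genes peak at 3 h, while CSF1 and its 5 genes are highest at 24 h. The 5 genes were chosen by their r over these same libraries, so a likeness of course follows from the choice.

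The receptors of these factors were low. CSF3R had 0 counts in all libraries, and CSF2RB had at most 2 counts in any library. CSF1R, the receptor of CSF1, had 4.69 ± 0.217 CPM in the 0 h libraries, 3.02 ± 0.446 in the 6 h libraries and 5.56 ± 0.659 in the 24 h libraries (SD, n = 3 each). It was lower at 6 h (-0.64 on the log2 scale, SE 0.160, adjusted p 0.00595) and was not called at 24 h (0.25, adjusted p 0.200). CSF2RA, the GM-CSF receptor alpha chain, had 10.1 ± 0.454 CPM at 0 h (SD, n = 3), and rose to 13.0 ± 0.369 CPM by 12 h (log2 fold change 0.36, adjusted p 0.0129) and to 14.5 ± 0.398 CPM by 24 h (0.52, adjusted p 3.0e-04). Its counts were divided equally with the entry of its second pseudoautosomal copy, so its level is understated.

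Among the other ligands, IL34, which also binds CSF1R, rose from 0.249 ± 0.0621 CPM (3 to 5 counts) at 0 h to 1.00 ± 0.298 CPM (12 to 23 counts) at 24 h, by 1.99 on the log2 scale (SE 0.443, adjusted p 0.00193). No IL34 library at 0, 1 or 12 h reached the filter's level of 0.629 CPM, and every one at 24 h did. The highest library at 3 h and that at 6 h also reached it. IL34 thus passed the filter only through times where it was higher than at 0 h, which limits its call. KITLG, the stem cell factor gene, fell at 3 h (-0.75, adjusted p 0.00580), from 22.8 ± 2.52 to 13.5 ± 2.55 CPM (SD, n = 3), and stood at 21.6 ± 2.81 CPM at 6 h. ADAM17, which encodes a protease that sheds membrane-bound CSF1, was called higher at 6 h (0.50, adjusted p 0.0114) and at 24 h (0.63, adjusted p 0.00197), and had 0.40 at 12 h (adjusted p 0.0604). ADAM17 counts were fractional in every library.

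Of the 28 other ligands, receptors and signalling genes counted, 20 passed the filter, and IL3, IL5, CSF2RB, CSF3R, IL3RA, IL5RA, KIT and FLT3 did not. In edgeR, 8 of the 20 were called higher and 2 lower at 6 h, beside 16.9% higher and 13.2% lower among all genes tested. At 24 h 9 were higher and 1 lower, beside 18% and 17.1%, where the 9 include IL34 with the limit given above, and at 12 h 5 were higher and 1 lower, beside 5.96% and 6.48%. At 3 h 0 were higher and 3 lower, beside 9.04% and 8.71%. At an unadjusted p under 0.05, 1 gene was higher at 3 h in edgeR and 0 in DESeq2 and limma-voom. At 1 h edgeR, DESeq2 and limma-voom each called 0 of the 20, and 1 was lower at an unadjusted p under 0.05. The median log2 fold change of the 20 was 0.19 at 6 h and 0.22 at 24 h, and over all genes it was -0.022 and -0.0017.

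The signalling genes that moved act downstream of several cytokine receptors. STAT3, a transducer of G-CSF signals, rose at 6 h (0.55, adjusted p 7.8e-06), and was above its 0 h level by 0.24 at 12 h (0.0177) and by 0.53 at 24 h (1.1e-05). STAT5A, a transducer of GM-CSF signals, rose at 6 h (0.58, adjusted p 0.00105) and was as far above 0 h at 24 h (0.58, 8.6e-04), with fractional counts in every library. PIM1, a kinase gene that STAT5 can induce, fell at 3 h (-0.80, adjusted p 2.3e-07) and was higher than at 0 h by 0.41 at 6 h (1.8e-04), by 0.48 at 12 h (1.0e-04) and by 0.40 at 24 h (1.9e-04). SOCS3, a feedback inhibitor of JAK signalling, fell at 3 h (-0.37, adjusted p 0.00308) and was lowest at 6 h (-0.62, 1.8e-05). JAK1 and the adaptor GRB2 were called higher at 6, 12 and 24 h. The other genes called were LYN and STAT5B higher at 6 h, SOCS2 lower at 12 h, and SHC1 higher and TYK2 lower at 24 h. STAT5B and SHC1 also had fractional counts in every library. PIM1 and SOCS3 were thus below their 0 h levels at 3 h, when CSF2 was highest.

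**Figure D5:**
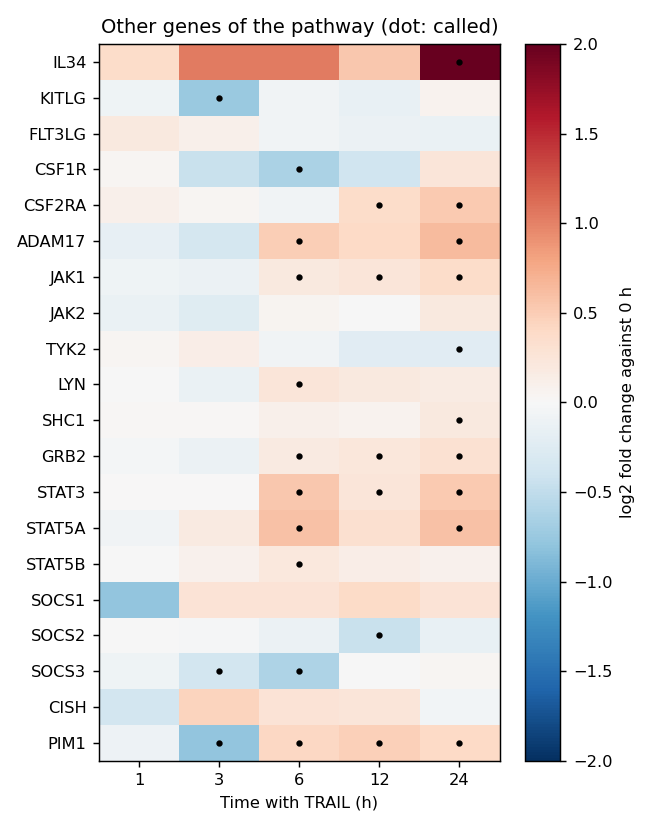
Log2 fold change against 0 h (colour, red higher and blue lower) of the 20 tested ligand, receptor, protease and signalling genes (rows) at each later time in h (columns). A dot marks an adjusted p below 0.05 in edgeR. The 3 h column holds 3 dots, all of lower genes, and the 24 h column holds 10 dots, 9 of them of higher genes.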

How the data were processed

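RNA-seq libraries (TruSeq Stranded mRNA, paired-end, per the labels' protocols) were made from MDA-MB-231 cells at 6 times. The deposited table holds the authors' expected counts per gene from RSEM, as its name states. Cutadapt 1.18, STAR 2.7.0f and hg38 are named in the submitters' processing notes. The annotation release, the RSEM version and the strand setting are not given in the sources used here. Of all values, 10.8% were not whole, and counts were rounded. Columns were matched to samples by description, with 0 columns left over.

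Genes were filtered with filterByExpr at a minimum count of 10, scaled with TMM and fitted with edgeR 4.0.16 (R 4.3.3), with 1 mean for each time, robust quasi-likelihood dispersion and all 17 libraries. P-values were adjusted by the Benjamini-Hochberg method over all genes tested, and SEs come from the coefficient and its F. Exact two-sided permutation tests over libraries were run on log2 CPM + 0.5. DESeq2 1.42.0 and limma 3.58.1 (voom) were alternatives, with other scalings, filters, libraries left out and, added after the data were seen, a length and GC correction and all 15 pairs of times. CPM used TMM-scaled totals, TPM the exonic length in GENCODE 29, and the promoter came from RefSeq on GRCh38.p14.

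The members, the lists and the tests were chosen with earlier results of these data known. The genes named are the 3 members, the receptors and called genes of a list of ligands, receptors and signalling genes (28 counted, with 2 others of the list not reported here), and for each member the 5 genes of average log2 CPM of at least 1 with the highest Pearson r over the 17 libraries, beside NFKB2, RELB, IL6 and CXCL8. Tested genes within 100 kb, marker genes and members of the list at 0 were added as context. Replicate pairs were compared for duplicates: counts of 6 h replicates 2 and 3 (chi-square per gene 1.55) and of 24 h replicates 2 and 3 (1.68) were closer than other pairs (3.86 to 14.6) but still differed, and were kept apart.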

Additional observations from a re-analysis of the deposited data

How the results depend on the processing

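Of the values of the 3 genes between times under alternatives other than leaving out a library, 335 kept their direction and call, 6 lost their call, 2 gained one and 7 changed sign. The cause of these changes was not tested. With upper-quartile scaling, CSF3 at 12 h against 6 h was 0.033 and at 24 h against 12 h -0.011. With library size as the only scaling, CSF1 at 3 h against 0 h was 0.13 (lost), CSF1 at 6 h against 3 h 0.17 (gained) and CSF2 at 24 h against 12 h 0.036 (sign changed). That scaling also moved the mean level of CSF1 to 185.5 CPM at 3 h and 350.7 CPM at 24 h. Without a filter, CSF1 at 3 h against 0 h was 0.18 (lost). CSF3 at 3 h against 1 h was 1.49 in DESeq2 and CSF2 at 1 h against 0 h 0.72 in limma-voom (both lost). With only the times compared, CSF1 and CSF3 at 3 h against 1 h were 0.27 and 1.46 (both lost). With the closest replicate pairs averaged, CSF2 at 24 h against 12 h was 0.081. The length and GC correction, chosen after the data were seen, gave CSF1 at 6 h against 3 h 0.13 (gained), CSF3 at 6 h against 3 h 0.040 and CSF2 at 24 h against 12 h 0.20, with signs changed in the last pair. Whether replicate numbers pair the libraries was not settled. Same-numbered libraries of different times had a mean correlation of deviations of 0.033 against -0.015 for others. Single same-numbered pairs ran from -0.56 to 0.60, with 19 of 40 above 0.1, and 8 of 17 libraries correlated best with their own number. CSF3 had its highest CPM in replicate 2 at every time. Its SE at 3 h against 0 h was 0.314 with replicate number as a block and 0.348 without. With the replicate block, CSF3 at 1 h against 0 h was -0.018, and no other call or sign among the 3 genes changed.

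With 1 library of the compared times left out, 126 values kept direction and call, 21 lost the call and 9 changed sign. The ranges were 0.59 to 0.86 for CSF2 at 1 h against 0 h, 0.45 to 0.58 at 12 h and 0.31 to 0.59 at 24 h. For CSF1 they were 0.18 to 0.23 at 3 h against 0 h and 0.24 to 0.31 at 3 h against 1 h. For CSF3 they were -0.13 to 0.36 at 1 h against 0 h, 1.19 to 1.56 at 12 h against 0 h, 1.23 to 1.73 at 3 h against 1 h, -0.21 to 0.15 at 12 h against 6 h and -0.18 to 0.19 at 24 h against 12 h. CSF2 at 24 h against 12 h ran from -0.20 to 0.084. Leaving out a library of another time changed 5 of 303 values.

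The number of all genes called moved more. At 3 h against 0 h it was 1389 higher and 1338 lower, and 913 and 2153 by library size only. At 6 h against 0 h it was 2602 and 2025, with 3047 lower by upper-quartile scaling and 1433 and 1088 with pairs averaged. At 12 h against 6 h it was 1337 and 1831, 2184 and 1104 by upper-quartile scaling, and 695 and 976 with pairs averaged. At 1 h against 0 h it was 40 and 8, 132 and 63 without a filter, with 16 lower in DESeq2 and 5 lower with only those times or with pairs averaged. At 3 h against 1 h it was 487 and 393, with 630 lower without a filter, 195 and 117 with only those times and 899 and 802 with the length and GC correction. Pairs averaged gave 1711 higher at 24 h against 0 h (2763 before) and 275 and 178 at 24 h against 12 h (987 and 860 before). With 1 library left out, the calls ran from 326 to 689 higher at 12 h against 0 h (916 with all), from 338 to 1529 higher at 24 h against 12 h and from 166 to 550 higher at 3 h against 1 h. Counts of 6 to 26 a library limit what CSF3 can show.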
